A study of Homo sapiens with 6 samples.

Results

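NRF2, the protein of NFE2L2, is a transcription factor that switches on antioxidant and detoxification genes. In unstressed cells KEAP1 binds NRF2 and hands it to a ubiquitin ligase, so that NRF2 is degraded. Oxidants and electrophiles modify KEAP1, NRF2 is then spared, and together with small MAF proteins it binds antioxidant response elements near its targets. Because this control acts largely on the protein, the mRNA of NFE2L2 is a poor gauge of NRF2 activity, and the mRNAs of the targets are the usual readout. In squamous carcinomas the pathway is known for mutations that keep NRF2 active.

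Described here are NFE2L2, KEAP1 and 7 NRF2 targets, namely NQO1, HMOX1, GCLM, GCLC, TXNRD1, SRXN1 and SLC7A11, in RNA sequencing of Cal27, an established human cell line of tongue squamous carcinoma. The 9 members were chosen by name as known pathway genes, out of 57820 identifiers in the count table. All 9 were found and all 9 passed the filter on low counts, which left 16396 tested genes. The study had 3 groups of 2 libraries of this 1 cell line, which the series' design calls biological replicates and the labels place in batch 1. The CRNN cells carried a lentivirus that overexpresses cornulin (CRNN), a protein of the differentiating squamous epithelium, and the GFP cells carried a GFP vector, in both cases with polybrene at 8 µg/ml and a harvest at 48 h. The untreated cells are labelled WT and received neither virus, and for them the labels give no harvest time and no polybrene, so these cannot be told apart from transduction. Nothing says that the replicates came from separate cultures, so the p-values measure the spread between these libraries, which may be technical. In bulk RNA, fewer cells expressing a gene and less of its RNA per cell cannot be told apart.

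Library totals lay between 11817105 counts (GFP replicate 2) and 28041227 counts (untreated replicate 1), and 3 counts corresponded to between 0.115 and 0.239 CPM, the count scaled to a common library size with TMM factors. CRNN itself stood at 964 and 1028 CPM in the CRNN libraries, 3.06 and 2.55 CPM in GFP and 3.51 and 2.08 CPM in untreated cells. Squamous markers were present in every library, with a summed level of 5018 and 5766 CPM in CRNN, 3862 and 4265 CPM in GFP and 5322 and 6033 CPM in untreated cells for 8 of 8 genes. Single markers varied more than the sum. KRT17 had 1771 CPM in untreated replicate 1 and between 67.6 and 182 CPM in the other libraries, while KRT14 was lowest in untreated replicate 1, at 64.6 CPM. Immune markers summed to between 5.87 and 9.47 CPM over all 6 libraries and fibroblast markers to between 3.96 and 9.10 CPM. Endothelial markers, without PECAM1, which was not found, summed to between 8.05 and 14.0 CPM in 5 libraries. In untreated replicate 1 they summed to 53.0 CPM, of which CDH5 gave 49.9 CPM. Untreated replicate 1 stood apart: of 11875 well-expressed genes, 135 were more than 4-fold higher there than in every other library and 46 were lower, against at most 9 and 15 in any other library.

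The promoter windows of the members are shown for the elements that NRF2 is known to bind. The motif searched was TGACNNNGC, the core of the antioxidant response element, on both strands of the RefSeq windows (GRCh38.p14) that run from 250 bases before to 50 bases after a start site. Of 35116 windows in the table, 13.3% held it. The table had 10 windows for 7 of the 9 members, and 4 of these windows, belonging to KEAP1, GCLM and TXNRD1, held it. A match is a description of letters and not a measured binding site. In the following stretches the capitals mark the motif, on either strand, with positions counted from the start site of each window.
GCLM, upstream of the gene, 1 match at -34 to -26, chr1:93909431-93909490, minus strand: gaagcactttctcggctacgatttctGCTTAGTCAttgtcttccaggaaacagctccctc
KEAP1, a start site intronic in the canonical transcript, matches at -54 to -46 and -31 to -23, chr19:10502792-10502851, minus strand: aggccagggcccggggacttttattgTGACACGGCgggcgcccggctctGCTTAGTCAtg
TXNRD1, upstream of the gene's start, the first of 2 matches in the window, at -99 to -91, chr12:104215654-104215713, plus strand: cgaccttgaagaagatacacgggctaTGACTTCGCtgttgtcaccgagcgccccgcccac
TXNRD1, another start site, intronic in the canonical transcript, match at -102 to -94, chr12:104286904-104286963, plus strand: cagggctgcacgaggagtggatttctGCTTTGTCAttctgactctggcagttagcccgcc
The other match in the TXNRD1 window upstream of the gene's start, at -8 to 1, spans the start site and is not printed. The GCLM match and the second KEAP1 match hold the same 9 letters. The windows found for NFE2L2, NQO1, GCLC and SRXN1 held no such letters, which says nothing of elements elsewhere.

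To compare levels between genes, CPM was divided by the length of the canonical transcript in kilobases, which gives RPKM. On that scale TXNRD1 stood highest of the members with a mean of 72.5 RPKM over the 6 libraries, followed by NQO1 with 63.1 RPKM, and these lay at the 95.8 and 95.05 percentiles of all tested genes. Their order differed between libraries, with 57.9 RPKM for TXNRD1 and 56.5 RPKM for NQO1 in CRNN replicate 1 and 63.3 and 70.2 RPKM in CRNN replicate 2. KEAP1 at 24.6 RPKM and NFE2L2 at 23.0 RPKM came next, and their order was not the same in every library. GCLC at 9.91 RPKM, GCLM at 6.48 RPKM and HMOX1 at 5.69 RPKM followed, and these 3 overlapped in range over the libraries, then SLC7A11 at 1.51 RPKM and SRXN1 at 0.384 RPKM. The median tested gene had 3.71 RPKM. In the untreated cells TXNRD1 and NQO1 averaged 95.4 and 68.1 RPKM, while HMOX1, the most stress-inducible of these genes in many cell types, averaged 6.19 RPKM.

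**Figure D1:**
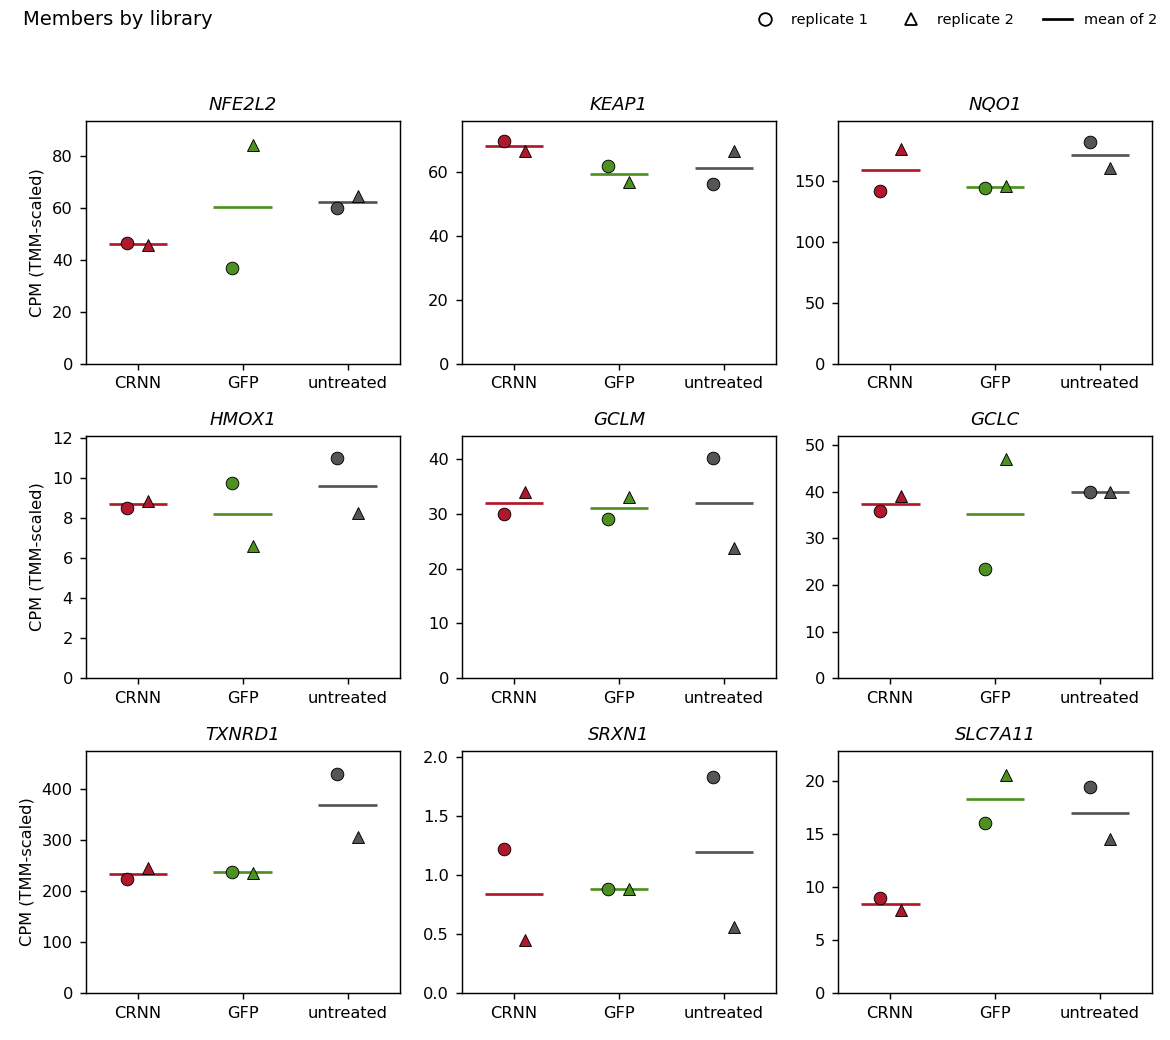
CPM (scaled with TMM factors, linear axes from 0) of the 9 members in the 6 libraries, with 1 point per library and a bar at the mean of each pair. SLC7A11 lay at 7.80 and 8.98 CPM in CRNN and at 14.5 CPM or more in every other library, TXNRD1 was highest in the untreated pair, and for NFE2L2 and GCLC the GFP replicates enclosed all other libraries.

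CRNN against GFP asks what differs when the virus carries CRNN in place of a control insert. SLC7A11 had the largest difference of the 9 members and stood below GFP in both CRNN libraries, while the other 8 members had log2 fold changes between -0.39 and 0.20. No member passed at an adjusted p under 0.05 over all genes (edgeR), 1 had an unadjusted p under 0.05, and DESeq2 and limma-voom also called 0. Over all tested genes edgeR called 0.0183% at the adjusted threshold, and 4.39% had an unadjusted p under 0.05, 2.90% lower and 1.49% higher. The libraries of 2 members did not overlap, KEAP1 higher and SLC7A11 lower, where 38.1% of all genes did not overlap. The median log2 fold change was 0.04 over the members and -0.00 over all genes, with 5 of 9 members positive.

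SLC7A11 encodes xCT, the light chain of the transporter that exchanges glutamate for cystine and so feeds glutathione synthesis (ENSG00000151012.9, GRCh38 chromosome 4, 138164097 to 138242349, minus strand). It had 8.98 and 7.80 CPM in the CRNN libraries, from 198 and 175 counts, against 15.996 and 20.5 CPM in GFP, from 308 and 257 counts. In untreated cells it had 19.4 and 14.5 CPM, from 508 and 362 counts. Both CRNN libraries lay below all 4 others, and the GFP and untreated libraries overlapped. Of all tested genes, 18.7% had both CRNN libraries below both GFP libraries. The log2 fold change of CRNN over GFP was -1.12 (SE 0.29, 95% interval -1.79 to -0.45, n = 2 per group), an unadjusted p of 0.00435 and an adjusted p of 0.999 in edgeR. Over the alternatives tried it ranged from -1.28 to -0.91, with adjusted p-values between 0.236 and 1 by edgeR, DESeq2 or limma-voom. After a correction of each library for GC content and transcript length, added after the data were seen, it was -0.99, and the corrected levels were 9.93 and 8.88 CPM in CRNN, 20.0 and 17.2 CPM in GFP and 20.4 and 14.8 CPM in untreated cells.

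Against untreated cells, a comparison that shares the CRNN libraries with the one above, SLC7A11 had a log2 fold change of -1.01 (SE 0.29, 95% interval -1.68 to -0.35, n = 2 per group), with an unadjusted p of 0.00729 and an adjusted p of 0.989 in edgeR. With untreated replicate 2 left out it was -1.21 and passed (edgeR, adjusted p = 0.0452), in a fit that called 957 genes, and with untreated replicate 1 left out it was -0.79 (adjusted p = 1). Between GFP and untreated cells SLC7A11 had a log2 fold change of 0.11 (SE 0.29, 95% interval -0.55 to 0.76; edgeR, adjusted p = 0.937). The 13 mRNAs encoded in the mitochondrial genome, included as a check on RNA quality, had lower sums in CRNN than in GFP. They summed to 10461 and 6194 CPM in CRNN, 15097 and 11933 CPM in GFP and 10117 and 12346 CPM in untreated cells. The CRNN and untreated sums overlapped. Of those 13, 12 had both CRNN libraries below both GFP libraries, where 18.7% of all tested genes did. Against untreated cells 2 had both CRNN libraries below both others, where 18.4% of all tested genes did. The part of these mRNAs in the SLC7A11 result was not tested.

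The subunits of glutamate-cysteine ligase, an enzyme of glutathione synthesis, overlapped between CRNN and GFP. GCLC, the catalytic subunit of glutamate-cysteine ligase, which carries out the rate-limiting step of glutathione synthesis (ENSG00000001084.6, chromosome 6, 53497341 to 53545101, minus strand), had 35.8 and 39.0 CPM in CRNN, 23.5 and 46.9 CPM in GFP and 40.0 and 39.9 CPM in untreated cells. The GFP pair enclosed every other library, and the log2 fold change of CRNN over GFP was 0.09 (SE 0.34). GCLM, the modifier subunit that raises the activity of GCLC (ENSG00000023909.5, chromosome 1, 93885199 to 93909430, minus strand), had 30.009 and 33.9 CPM in CRNN, 29.0 and 33.04 CPM in GFP and 40.1 and 23.8 CPM in untreated cells. Here the untreated pair enclosed the others, and the log2 fold change of CRNN over GFP was 0.04 (SE 0.31). Per length, GCLC stood above GCLM in every library, by 1.54 and 1.49 times in CRNN, 1.05 and 1.83 times in GFP and 1.29 and 2.17 times in untreated cells. The CRNN ratios lay inside the range of both other groups.

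TXNRD1, cytosolic thioredoxin reductase, which keeps thioredoxin reduced with NADPH (ENSG00000198431.11, chromosome 12, 104215779 to 104350307, plus strand), had 224 and 245 CPM in CRNN, 238 and 235 CPM in GFP and 430 and 307 CPM in untreated cells. The CRNN and GFP libraries lay close together, and both untreated libraries lay above all 4. For CRNN over GFP the log2 fold change was -0.02 (SE 0.28, 95% interval -0.65 to 0.62). For CRNN over untreated cells it was -0.65 (SE 0.28, unadjusted p = 0.0447, adjusted p = 0.989 in edgeR), and for GFP over untreated cells, which shares the untreated pair, it was -0.64 (SE 0.28, unadjusted p = 0.0491, adjusted p = 0.711 in edgeR). Without untreated replicate 1 these values were -0.39 and -0.39 with adjusted p-values of 1 and 1 in edgeR, and without untreated replicate 2 they were -0.87 and -0.87 (adjusted p = 0.177 and 0.163). Of all tested genes, 18.4% had both CRNN libraries below both untreated ones and 15.5% had both GFP libraries below them. On the same strand, 2 genes lie within TXNRD1 in the annotation, RPL18AP3 with 26 to 165 counts and EID3 with 11 to 121 counts, against 2947 to 11260 counts for TXNRD1.

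SRXN1, sulfiredoxin, which repairs over-oxidised peroxiredoxins (ENSG00000271303.1, chromosome 20, 646615 to 653200, minus strand), had only 27 and 10 counts in CRNN, 17 and 11 counts in GFP and 48 and 14 counts in untreated cells. These are 1.22 and 0.446 CPM in CRNN, 0.883 and 0.878 CPM in GFP and 1.83 and 0.560 CPM in untreated cells. The CRNN and untreated pairs each spanned the GFP values, and the 95% interval of CRNN over GFP ran from -1.68 to 1.53 on the log2 scale. A second protein-coding gene, ENSG00000270299, overlaps SRXN1 on the same strand and had 0 or 1 count per library. How the counting treated reads that fall in both is not given in the sources used here, so the level of SRXN1 is uncertain.

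NQO1, the quinone reductase most used as a marker of NRF2 activity (ENSG00000181019.8, chromosome 16, 69709401 to 69726560, minus strand), had 142 and 177 CPM in CRNN, 144 and 147 CPM in GFP and 183 and 161 CPM in untreated cells. The CRNN pair spanned the GFP pair, and the difference of CRNN over GFP was 0.13 on the log2 scale (SE 0.26, 95% interval -0.46 to 0.73). HMOX1, heme oxygenase 1, which breaks down heme and is also held down by BACH1 (ENSG00000100292.12, chromosome 22, 35381096 to 35394207, plus strand), had 8.52 and 8.87 CPM in CRNN, 9.76 and 6.62 CPM in GFP and 11.001 and 8.25 CPM in untreated cells. Its CRNN values lay between those of the GFP replicates, and the log2 fold change was 0.08 (SE 0.32, 95% interval -0.64 to 0.80). For both genes the CRNN libraries overlapped those of either control.

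Of the regulators themselves, KEAP1 gave a small difference over GFP, and the difference of NFE2L2 was left unresolved. KEAP1 (ENSG00000079999.9, chromosome 19, 10486125 to 10503356, minus strand) had 69.7 and 66.6 CPM in CRNN, 62.1 and 57.0 CPM in GFP and 56.3 and 66.7 CPM in untreated cells. Its CRNN libraries lay above both GFP libraries, as did those of 19.4% of tested genes, with a log2 fold change of 0.20 (SE 0.25; edgeR, adjusted p = 0.999). NFE2L2 (ENSG00000116044.11, chromosome 2, 177230308 to 177264727, minus strand) had 46.6 and 45.6 CPM in CRNN, 36.9 and 84.0 CPM in GFP and 60.0 and 64.5 CPM in untreated cells. The GFP replicates enclosed all other libraries, and the CRNN pair lay below the untreated pair. The log2 fold change was -0.39 over GFP (SE 0.37; edgeR, adjusted p = 0.999) and -0.43 over untreated cells (SE 0.37; edgeR, adjusted p = 0.989). Without GFP replicate 2 the difference over GFP was 0.34.

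**Figure D2:**
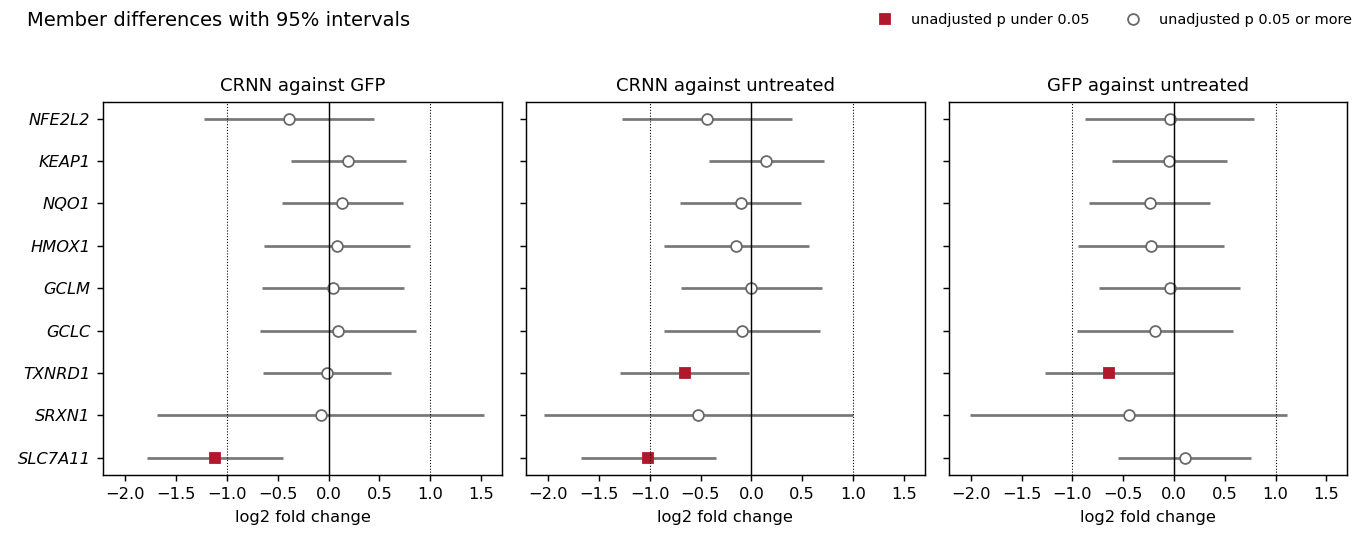
Log2 fold change of each member (edgeR, all 6 libraries in the fit) with its unadjusted 95% interval in the 3 comparisons, dotted lines marking 2-fold. Squares mark an unadjusted p under 0.05: SLC7A11 at -1.12 and -1.01 in the comparisons of CRNN, and TXNRD1 at -0.65 and -0.64 against untreated cells.

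The intervals show how much change these libraries leave room for. In CRNN against GFP the unadjusted 95% intervals of 6 members, KEAP1, NQO1, HMOX1, GCLM, GCLC and TXNRD1, lay inside a 2-fold change in either direction, and those of NFE2L2, SRXN1 and SLC7A11 did not. Of all tested genes 40.1% had such an interval. In CRNN against untreated cells 5 members did, beside 40.0% of all genes. In GFP against untreated cells 7 did, beside 35.1% of all genes, and TXNRD1 and SRXN1 reached beyond 2-fold. Log2 fold changes under 0.5 in size were seen for 8 of 9 members in CRNN against GFP, with 75.4% over all genes.

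In CRNN against untreated cells 7 of 9 members had negative log2 fold changes, with a median of -0.15 beside -0.01 over all genes; with RLE scaling 8 were negative. In GFP against untreated cells 8 of 9 were negative, with a median of -0.18 beside -0.01 over all genes, but 5 of 9 with upper-quartile scaling or with library totals alone. No member passed in either comparison by edgeR, DESeq2 or limma-voom. At an unadjusted p under 0.05 there were 2 members, SLC7A11 and TXNRD1, in the first and 1, TXNRD1, in the second (edgeR), all lower. Over all genes 4.48% had such a p in the first (2.96% lower, 1.52% higher) and 6.93% in the second (2.90% lower, 4.03% higher). The libraries of 4 members, NFE2L2, GCLC, TXNRD1 and SLC7A11, did not overlap in the first and those of NQO1 and TXNRD1 did not in the second, all lower, where 37.1% and 31.6% of all genes did not overlap. The adjusted threshold was passed by 0.00610% of genes in the first and 0.00% in the second. Without untreated replicate 1, which held the highest level of 5 of the 9 members, 5 members were negative in CRNN with a median of -0.01, and 6 were negative in GFP with a median of -0.11.

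Pairs of members varied in both directions over the libraries. Over the 36 pairs of members, Pearson's r of log2 CPM over the 6 libraries ranged from -0.86 to 0.85 with a median of 0.13. The points share libraries, depth and base composition, so this is a description. NFE2L2 and GCLC had the highest value, 0.85, and KEAP1 and SLC7A11 the lowest, -0.86. The next values are the 3 highest for each member out of 11672 genes searched (11673 for SRXN1). Over 6 libraries so wide a search returns high values of r by selection. Among genes outside the list, the level of NFE2L2 was most like those of PHF14 (r = 0.997), B4GALT4 (0.993) and NOL8 (0.992). SLC7A11 was most like FRMD4A, KLC1-AS1 and AFG3L1P (each r = 0.978 or 0.977), and SRXN1 most like ZNF296 (0.969), VPS9D1 (0.955) and SNORA65 (0.945). PHF14, for example, had 31.7 and 30.4 CPM in CRNN, 26.3 and 50.6 CPM in GFP and 37.0 and 40.9 CPM in untreated cells, the same order as NFE2L2.

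NFE2L2 and GCLC set the GFP replicates apart most among the members, and the GFP replicates differed by base composition and transcript length over all genes. GFP replicate 1 over replicate 2 was 0.440 times for NFE2L2 and 0.5002 times for GCLC, gaps larger than those of 94.8% and 90.3% of well-expressed genes. Spearman's rho between GC content and a gene's level relative to its mean was 0.496 in GFP replicate 1 and -0.306 in GFP replicate 2, and it lay between -0.184 and 0.120 in the other 4. These are values across genes, and genes are not replicates. The median gap of GFP replicate 1 minus replicate 2 was -0.54 on the log2 scale in the bin of lowest GC content, of 10 bins, and 0.52 in the highest. NFE2L2, at 42.1% GC, and GCLC, at 44.2% GC, had gaps of -1.18 and -0.997, beyond the bin medians of -0.48 and -0.31 near their GC content. After the GC and length correction the ratios of GFP replicate 1 to replicate 2 were 0.557 for NFE2L2 and 0.629 for GCLC.

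**Figure D3:**
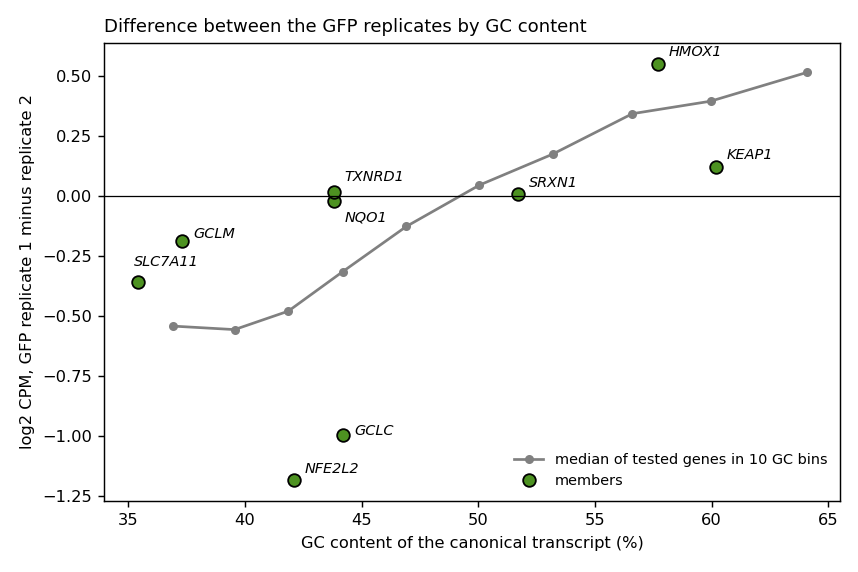
Difference in log2 CPM between GFP replicate 1 and replicate 2 against the GC content of the canonical transcript, for the 9 members (points) and as medians of the tested genes in 10 bins of GC content (line). The line stands at -0.54 in the lowest bin and 0.52 in the highest, and NFE2L2 at -1.18 and GCLC at -0.997 lie below it.

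SLC7A11 is also a target of ATF4, the transcription factor of the amino acid response, so 10 genes of that response were set beside it. Of these, 0 passed in any of the 3 comparisons with all 6 libraries fitted and the filter on low counts (edgeR, and also 0 by DESeq2 and limma-voom). In CRNN against GFP 7 of 10 were negative with a median of -0.15 and none had an unadjusted p under 0.05; without GFP replicate 1, 4 were negative with a median of 0.04. ATF4 itself had 212 and 248 CPM in CRNN against 243 and 212 CPM in GFP. SLC3A2, the heavy chain that carries xCT to the membrane, had 400 and 376 CPM in CRNN against 490 and 389 CPM in GFP, a log2 fold change of -0.18 (SE 0.27). CHAC1, which degrades glutathione, had 3.90 and 2.45 CPM in CRNN against 5.66 and 4.71 CPM in GFP, a log2 fold change of -0.71 (SE 0.65).

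Against untreated cells the median of the ATF4 list was -0.60 in CRNN, with 9 of 10 negative, and -0.40 in GFP, with 8 of 10 negative, comparisons that share the untreated pair. Of the 10 genes, 2 in CRNN and 1 in GFP had an unadjusted p under 0.05 (edgeR), all lower, where 2.96% and 2.90% of all genes were lower at that level. CTH, which makes cysteine from cystathionine, had positive values of 0.07 in CRNN and 0.38 in GFP. Without untreated replicate 2 the list medians were -0.70 in CRNN and -0.63 in GFP. With no filter 1 of the 10 passed in CRNN (edgeR), in a fit that also called many more genes over the whole table. ASNS, asparagine synthetase, had 34.3 and 38.4 CPM in CRNN and 38.6 and 37.0 CPM in GFP, against 69.9 and 68.7 CPM in untreated cells. Its 4 transduced libraries lay close together, below a tight untreated pair, with log2 fold changes of -0.93 (SE 0.25, unadjusted p = 0.00449, adjusted p = 0.989 in edgeR) and -0.87 (SE 0.25, unadjusted p = 0.00634, adjusted p = 0.711 in edgeR). ATF4 had 486 and 262 CPM in the untreated pair, and CHAC1 had 22.3 and 4.44 CPM, so that both leaned on untreated replicate 1. Without it the list medians were -0.27 in CRNN and -0.23 in GFP, while ASNS stayed at -0.91 and -0.88.

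**Figure D4:**
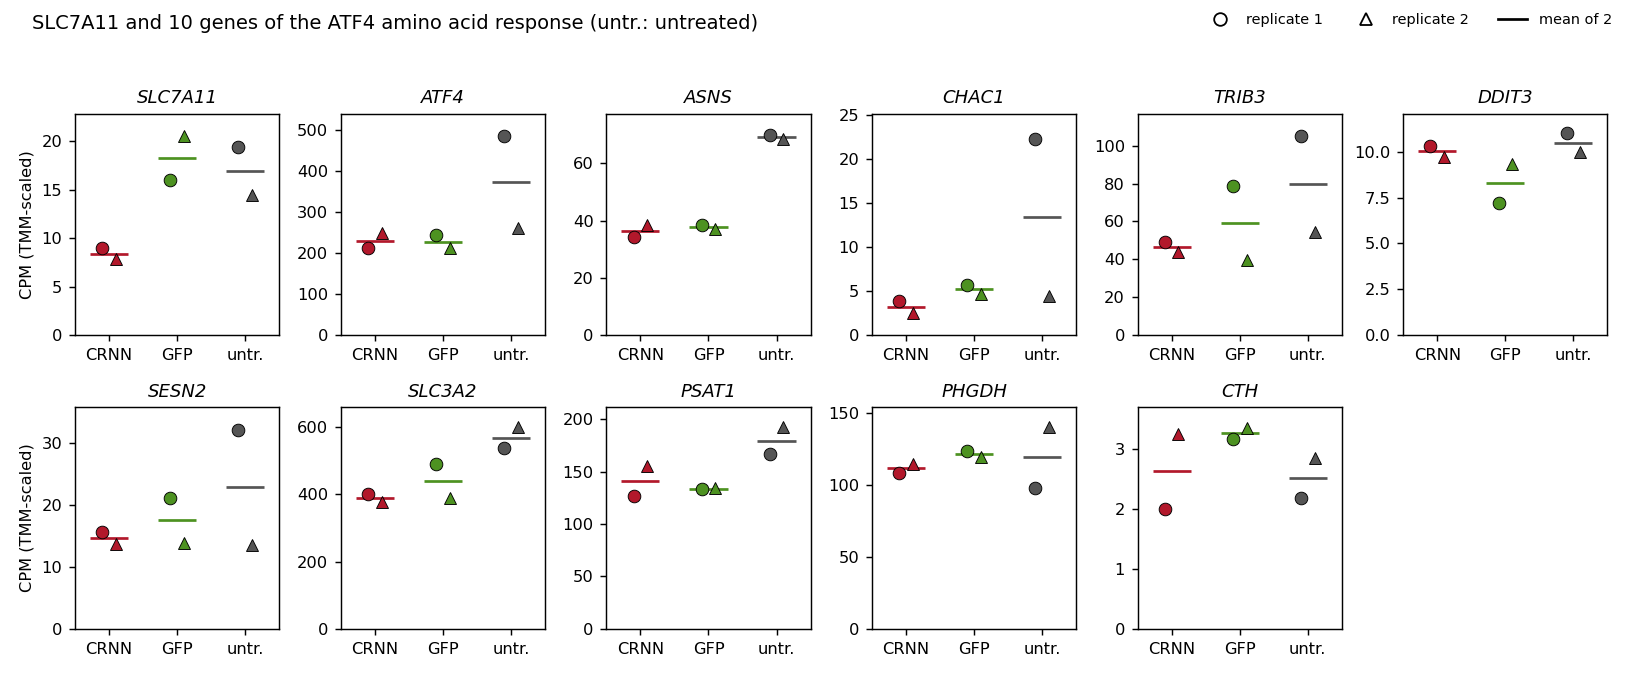
CPM (scaled with TMM factors, linear axes from 0) of SLC7A11 and the 10 genes of the ATF4 list in the 6 libraries, with a bar at the mean of each pair. ASNS was near 35 to 39 CPM in all 4 transduced libraries and near 69 CPM in both untreated ones, whereas SLC7A11 was lowest in the CRNN pair.

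With all 6 libraries fitted and the filter on low counts, the other 6 lists of pathway genes held no gene that passed in any comparison (edgeR, and 0 by DESeq2 and limma-voom). Some list genes did pass in edgeR against untreated cells with untreated replicate 2 left out. Those fits rest on a lone untreated library and called many genes over the whole table, so only their medians are given. Without untreated replicate 2, the median over the 63 genes of all 7 lists was -0.13 in CRNN against untreated cells, beside 0.03 over all genes. In GFP against untreated cells it was -0.33, beside 0.05 over all genes. With no filter on low counts, 4 of the 63 passed in CRNN against untreated cells, 3 of them regulators or partners of NRF2 (edgeR). In GFP against untreated cells 1 such regulator then passed. Without the filter many more genes were also called over the whole table in both comparisons, as counted in the closing section. The share of all genes called without the filter is not given here, so these calls are not read as a result about the lists. All 7 lists together had 63 tested genes of 68. In CRNN against GFP 38 of 63 were positive, with a median of 0.08 beside -0.00 over all genes, and 1 had an unadjusted p under 0.05. All 9 tested genes of the thioredoxin and glutathione list were positive, with a median of 0.32. TXN, thioredoxin, had 333.2 and 489 CPM in CRNN against 289 and 252 CPM in GFP (log2 fold change 0.60, SE 0.29). GSR, glutathione reductase, had 84.7 and 103 CPM in CRNN against 46.6 and 77.7 CPM in GFP (0.60, SE 0.31). Without GFP replicate 1, 7 of these 9 were positive and without GFP replicate 2, 6 were. All 11 tested genes of quinone, carbonyl and xenobiotic metabolism were positive with a median of 0.26, and 10 were with library totals alone. CBR1, a carbonyl reductase, had 24.7 and 25.8 CPM in CRNN against 17.5 and 17.7 CPM in GFP (0.52, SE 0.26). Without GFP replicate 1 the median of that list was 0.01 with 6 of 11 positive.

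The 5 tested export pumps were all negative in CRNN against GFP, with a median of -0.19. The median was -0.56 without GFP replicate 2, -0.31 without CRNN replicate 1 and, over the 4 then tested, -0.46 with only these 2 groups fitted, and 4 of 5 were negative without GFP replicate 1. ABCC3, another export pump, had 10.7 and 7.85 CPM in CRNN against 31.1 and 12.6 CPM in GFP, a log2 fold change of -1.24 (SE 0.55). ABCC1, which exports glutathione conjugates, had 56.8 and 46.8 CPM in CRNN against 93.1 and 77.3 CPM in GFP, a log2 fold change of -0.72 (SE 0.30, unadjusted p = 0.0412, adjusted p = 0.999 in edgeR). In untreated cells it had 73.3 and 46.9 CPM, which overlapped the CRNN libraries. Of the 6 genes of the NADPH supply list, 4 were positive. BLVRB, a biliverdin reductase of the heme and iron list, had a log2 fold change of 0.45 (SE 0.25). PIR, an iron-binding protein of the list of NRF2 regulators and partners, had 0.63 (SE 0.35).

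In CRNN against untreated cells the regulators and partners of NRF2 had the most genes with an unadjusted p under 0.05, 4 of 15, all lower, where 2.96% of all genes were lower at that level. MAFF, a small MAF protein, had 5.17 and 5.13 CPM in CRNN against 53.4 and 6.85 CPM in untreated cells. MAFK, another partner of NRF2, had 12.0 and 10.3 CPM in CRNN against 66.7 and 13.3 CPM in untreated cells. TRIM16 had 44.9 and 47.0 CPM in CRNN against 237 and 57.0 CPM in untreated cells, and OSGIN1, the fourth gene, had 4.03 and 3.39 CPM in CRNN against 11.5 and 4.604 CPM in untreated cells. All 4 were highest in untreated replicate 1, and without untreated replicate 1 none of the 15 had an unadjusted p under 0.05. In GFP against untreated cells 48 of the 63 pathway genes were negative, with a median of -0.28. Over all genes the median was -0.01 and 48.9% were positive. Of the 63 genes, 2, TRIM16 and ASNS, had an unadjusted p under 0.05 (edgeR), both lower, where 2.90% of all genes were lower at that level. Without untreated replicate 1, 44 were negative with a median of -0.20.

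**Figure D5:**
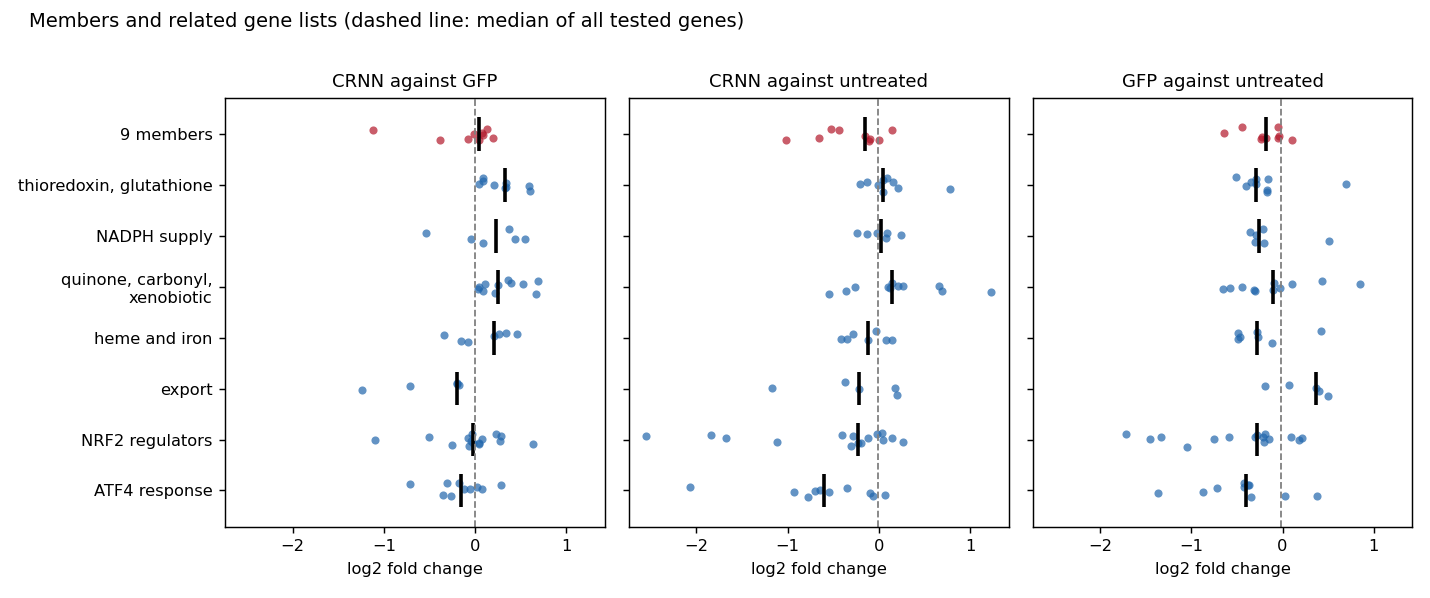
Log2 fold changes (edgeR) of the 9 members and of the tested genes of 7 related lists in the 3 comparisons, with 1 point per gene, a bar at the median of each list and a dashed line at the median of all tested genes. In CRNN against GFP the thioredoxin and glutathione list (median 0.32) lay to the right and the export list (-0.19) to the left, and against untreated cells the ATF4 list lay to the left (-0.60 and -0.40).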

How the data were processed

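The submitters' processing notes name STAR 2.6, HTSeq 0.6.1, FastQC 0.11.7, edgeR and bcl2fastq, and the builds hg19, GRCh37 and GRCh38, without roles. Per the labels' protocols the libraries were stranded total RNA; which gene annotation and strand mode the counting used is not given in the sources used here. The deposited values are raw counts per gene for 6 libraries. Of 57820 identifiers, 51996 matched a name in GENCODE release 44 (GRCh38), the source of coordinates, lengths and GC content, and 5824 did not.

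Genes were kept by filterByExpr (minimum count 10, minimum total 15) and scaled by TMM. The quasi-likelihood F test of edgeR 4.0.16 (R 4.3.3; two-sided) was fitted over all 6 libraries without covariates, with Benjamini-Hochberg adjustment over 16396 genes and a threshold of 0.05. SE is the size of the log2 fold change over the square root of F. Tried in place of these were scaling by RLE, by upper quartile or by totals alone, testing without the filter, DESeq2 1.42.0, limma-voom (limma 3.58.1), only the 2 groups compared, a replicate block and each library left out; a GC and length correction (natural splines, 4 degrees of freedom each) was added after seeing the data. The code was tested on simulated data, where 15% of 2-fold and 84% of 4-fold changes were recovered in CRNN against GFP.

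Named genes were all members, up to 3 genes per list and comparison by smallest p, and the 3 genes most like each member that varied over 2-fold. ATF4, SLC3A2 and CTH were named beside SLC7A11 and OSGIN1 to complete a count, after their values were seen. 1 gene that the rule names is not reported here. Members and lists were chosen with earlier results of these data known. Floors of 3 counts cover counting error only.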

Additional observations from a re-analysis of the deposited data

How the results depend on the processing

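No member passed in CRNN against GFP or in GFP against untreated cells under any alternative run. In CRNN against untreated cells between 0 and 1 member passed when each library was left out, SLC7A11 (-1.21 to -0.79) being the 1, without untreated replicate 2. The genes called over the whole table were 3 in CRNN against GFP, 1 in CRNN against untreated and 0 in GFP against untreated cells. They became 34, 152 and 195 with no filter and 22, 7 and 29 with DESeq2. In CRNN against GFP they became 13 with only the 2 groups compared and 1 with the GC and length correction. Leaving out each library gave 0 to 15, 1 to 957 and 0 to 966, and a lone library was then assumed to vary like the other groups. DESeq2 gave no adjusted p for SRXN1 in CRNN against GFP. Among the values for single members under an alternative, 363 kept their direction and side of the threshold, 1 newly passed and 40 changed sign, and the cause was not tested.

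Sign changes in CRNN against GFP, as ranges of the log2 fold change with each library left out, were -0.86 to 0.34 for NFE2L2, -0.027 to 0.31 for NQO1, -0.14 to 0.40 for HMOX1, -0.044 to 0.17 for GCLM, -0.32 to 0.70 for GCLC, -0.079 to 0.077 for TXNRD1 and -0.94 to 0.48 for SRXN1. With the GC and length correction NQO1 was -0.020 and GCLM -0.0091, and with no filter TXNRD1 was 0.027. In CRNN against untreated cells the ranges were -0.28 to 0.061 for NQO1, -0.33 to 0.080 for HMOX1, -0.32 to 0.43 for GCLM and -1.40 to 0.57 for SRXN1, and GCLM was -0.0013 with RLE, -0.0013 with DESeq2 and -0.011 with no filter. In GFP against untreated cells they were -0.78 to 0.42 for NFE2L2, -0.18 to 0.069 for KEAP1, -0.38 to 0.36 for GCLM, -0.79 to 0.22 for GCLC, -1.06 to 0.63 for SRXN1 and -0.11 to 0.31 for SLC7A11. There, upper-quartile factors gave 0.036 for NFE2L2, 0.048 for KEAP1 and 0.074 for GCLM. Library totals alone gave 0.033 for NFE2L2, 0.0056 for KEAP1 and 0.038 for GCLM. The GC and length correction gave 0.080 for NFE2L2 and 0.094 for GCLM, and limma-voom gave 0.00062 for GCLM.

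The groups share replicate numbers, but same-numbered libraries did not deviate together in every pair of groups (r = 0.26 for CRNN and GFP, -0.078 for CRNN and untreated, 0.21 for GFP and untreated, over 11875 genes), so the numbers are not taken as a pairing. With the replicate block 0 members passed in each comparison and 4, 1 and 0 genes were called, and SLC7A11 was -1.13 in CRNN against GFP. With 2 libraries a group and members such as SRXN1 at 10 to 48 counts, small differences were not detectable. In simulated data for CRNN against GFP, with 200 changed of 16396 genes in 2 runs, most 2-fold changes were missed as well. That recovery is given over all changed genes and not at the levels of these members.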
